A study of Mus musculus with 10 samples.

Results

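The genes examined here are the 9 mouse genes that encode the subunits of AMPA receptors (Gria1, Gria2, Gria3 and Gria4) and kainate receptors (Grik1, Grik2, Grik3, Grik4 and Grik5). They were selected by gene symbol, with earlier results of these data known. They are 9 of the 24421 gene rows in the count tables, and all 9 had a row. Their levels were followed over 10 pools of vagal sensory neurons picked by hand from the rostral (jugular) or caudal (nodose) end of the mouse jugular/nodose ganglion complex.

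The pools formed 5 groups of 2 replicates. In the Trpv1 selection, red neurons were picked from Trpv1-tdTomato mice, in which Cre expressed from Trpv1 switches on a tdTomato reporter at the Rosa26 locus. A red cell has therefore made Cre at some time in its life and need not express Trpv1 when it is picked. This selection gave 2 pools of 30 Trpv1-tdTomato-positive nodose neurons, 2 pools of 30 Trpv1-tdTomato-positive jugular neurons and 2 pools of 15 Trpv1-tdTomato-negative nodose neurons. All of these cells came from the same 2 mice, and whether a replicate stands for a mouse is not given in the sources used here. In the capsaicin selection, C57BL/6 neurons were picked by their calcium response. The nodose pools (14 and 15 cells) had responded to both 10 μM α,β-methylene ATP, a P2X receptor agonist, and 1 μM capsaicin, the TRPV1 agonist. The jugular pools (15 and 16 cells) had responded to the second agonist and ignored the first. Selection, strain, sequencing core and depth changed together and cannot be told apart. The p-values measure only the spread between pools, since nothing in the labels ties the replicates to separate animals.

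AMPA and kainate receptors are glutamate-gated cation channels, each an assembly of subunits of its own family, and they carry fast excitatory signals. Grik1, Grik2 and Grik3 encode subunits that can form channels by themselves, whereas the products of Grik4 and Grik5 bind kainate with high affinity and need one of the former as a partner. GluA2, the product of Gria2, makes AMPA receptors nearly impermeable to calcium once its transcript has been edited at a single codon in the pore loop. Primary sensory neurons release glutamate from their central ends, and kainate receptors that contain GluK1, the product of Grik1, are a known feature of small sensory neurons of the dorsal root ganglia.

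The pore loop is printed because it holds the codon whose editing in the Gria2 transcript sets the calcium permeability of AMPA receptors, and because it shows how the subunits differ there. The transcripts of Grik1 and Grik2 are also known to be edited at this codon. Each line gives 48 bases of the coding strand of the reference transcript (GENCODE vM21 on GRCm38, 5′ to 3′), and the capitals mark the glutamine codon at the position of the Q/R site, as the genome encodes it.
Gria1: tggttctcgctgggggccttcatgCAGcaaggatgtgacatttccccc
Gria2: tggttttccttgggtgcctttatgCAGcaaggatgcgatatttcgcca
Gria3: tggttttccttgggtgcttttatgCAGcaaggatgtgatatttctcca
Gria4: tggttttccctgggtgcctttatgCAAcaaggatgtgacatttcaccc
Grik1: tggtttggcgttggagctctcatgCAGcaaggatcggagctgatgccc
Grik2: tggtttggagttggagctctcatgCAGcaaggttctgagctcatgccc
Grik3: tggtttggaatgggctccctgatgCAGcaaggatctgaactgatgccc
Grik4: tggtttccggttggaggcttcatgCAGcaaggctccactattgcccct
Grik5: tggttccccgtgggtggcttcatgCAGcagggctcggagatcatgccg
The codon is CAG in 8 of the genes and CAA in Gria4. Gria2 and Gria3 differed at 3 of the 48 bases, Grik1 and Grik2 at 4, Gria2 and Grik1, one from each family, at 16, and Grik3 and Grik4 at 21. Counts per gene hold no base calls, so they do not show how much of any transcript was edited.

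In the genome the codon lies inside coding sequence. For Gria2 it is at chr3:80706911-80706913 in exon 11 of 16 on the minus strand, and the gene spans chr3:80681450-80802835. For Grik1 it is at chr16:87940542-87940544 in exon 13 of 18 on the minus strand, and the gene spans chr16:87895900-88290265. The other loci are Gria1 (chr11:57011387-57330244, plus strand), Gria3 (chrX:41400854-41678601, plus), Gria4 (chr9:4417896-4796234, minus) and Grik2 (chr10:49094833-49788766, minus). Grik3 lies at chr4:125490700-125714173 (plus), Grik4 at chr9:42518135-42944493 (minus) and Grik5 at chr7:25009849-25072346 (minus). No other gene with a row of its own in the tables shared exonic bases with them. Of the 36 pairs of these genes, 7 shared a run of 50 bases, the read length, and the largest overlap was 9 such runs between Gria2 and Gria3, so very few reads could fall on 2 of the genes.

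The values are raw counts and, from them, depth-scaled levels in CPM (counts divided by a pool's effective depth, set by DESeq2 size factors over the 10 pools). Total counts ran from 148452506 to 167704327 in the Trpv1 selection and from 17666710 to 30810863 in the capsaicin selection. A floor of 3 counts was then worth 0.0144 to 0.0191 CPM and 0.146 to 0.217 CPM, respectively, and floors cover counting error only. Labels were checked against defining genes. The placodal gene P2rx2 had at least 76.1 CPM in each nodose pool and at most 0.292 CPM in each jugular pool, Hoxb5 at least 289 and at most 0.243 CPM, and the crest genes Prdm12, Tac1 and Gfra3 summed to at least 411 CPM in each jugular pool and at most 1.54 CPM in each nodose pool. Trpv1 was at 22.1 CPM or more in each positive or capsaicin-selected pool and at 0.0431 and 0.0413 CPM in the Trpv1-tdTomato-negative pools. The other listed markers of capsaicin-sensitive neurons did not fully follow. Trpa1 was at most 0.0239 CPM in the negative pools, but only 0.155 CPM in the first capsaicin-selected nodose pool. Scn10a had 201.5 and 134.2 CPM in the negative pools, within its range in the other pools (73.9 to 814 CPM). All 6 sensory neuron markers were present in all 10 pools, and 8 of 12 satellite glia and Schwann cell markers, led by Apoe, Pmp22 and S100b, also passed 10 CPM in both replicates of a group. The glial markers summed to 4380 and 4448 CPM in the Trpv1-tdTomato-positive nodose pools, 3738 and 5065 in the positive jugular pools, 3803 and 4278 in the negative nodose pools, 2370 and 2971 in the capsaicin-selected nodose pools and 1992 and 2430 in the capsaicin-selected jugular pools. Their defining gene Sox10 was at 0 in all 4 capsaicin-selected pools. The fibroblast markers, chiefly Dcn and Col1a2, summed to 51.5 and 296 CPM in the capsaicin-selected jugular pools. Their sum was 0 and 47.6 CPM in the capsaicin-selected nodose pools and at most 9.49 CPM in each pool of the Trpv1 selection. The endothelial markers Cldn5 and Cdh5 and the macrophage markers Ptprc, Aif1, C1qa and Csf1r were at 0 in all 10 pools. The remaining macrophage marker, Cd68, had 93.8 CPM in the first capsaicin-selected nodose pool and 22.1 CPM in the first capsaicin-selected jugular pool. It had 5.78 CPM in the first Trpv1-tdTomato-positive nodose pool and at most 0.145 CPM in each other pool.

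Grik1, which encodes the kainate receptor subunit GluK1, was the member that marked the jugular neurons. It had 91.4 and 168 CPM in the Trpv1-tdTomato-positive jugular pools (17132 and 33608 counts) and 262 and 843 CPM in the capsaicin-selected jugular pools (5390 and 16327 counts). In the nodose neurons of the same selections it had 0.0383 and 0.0607 CPM (6 and 10 counts) and 0.207 and 1.38 CPM (4 and 19 counts). All 4 jugular pools lay above all 4 of these nodose pools. In the Trpv1 selection the glial and fibroblast sums of the ganglia overlapped, but single glial markers did not: S100b was higher in the jugular pools (521 and 441 CPM) than in the nodose pools (205 and 235 CPM), as, narrowly, was Pmp22, and Fabp7 was lower. The part of other cells' RNA in the level of Grik1 was not tested. In the Trpv1-tdTomato-negative nodose neurons the replicates parted, with 0.23 CPM in the first pool (48 counts) and 54.5 CPM in the second (10552 counts), and neither of these pools reached the lowest jugular one. A pooled library cannot tell fewer cells that express a gene from less RNA in each cell, and this holds for every level given here.

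**Figure D1:**
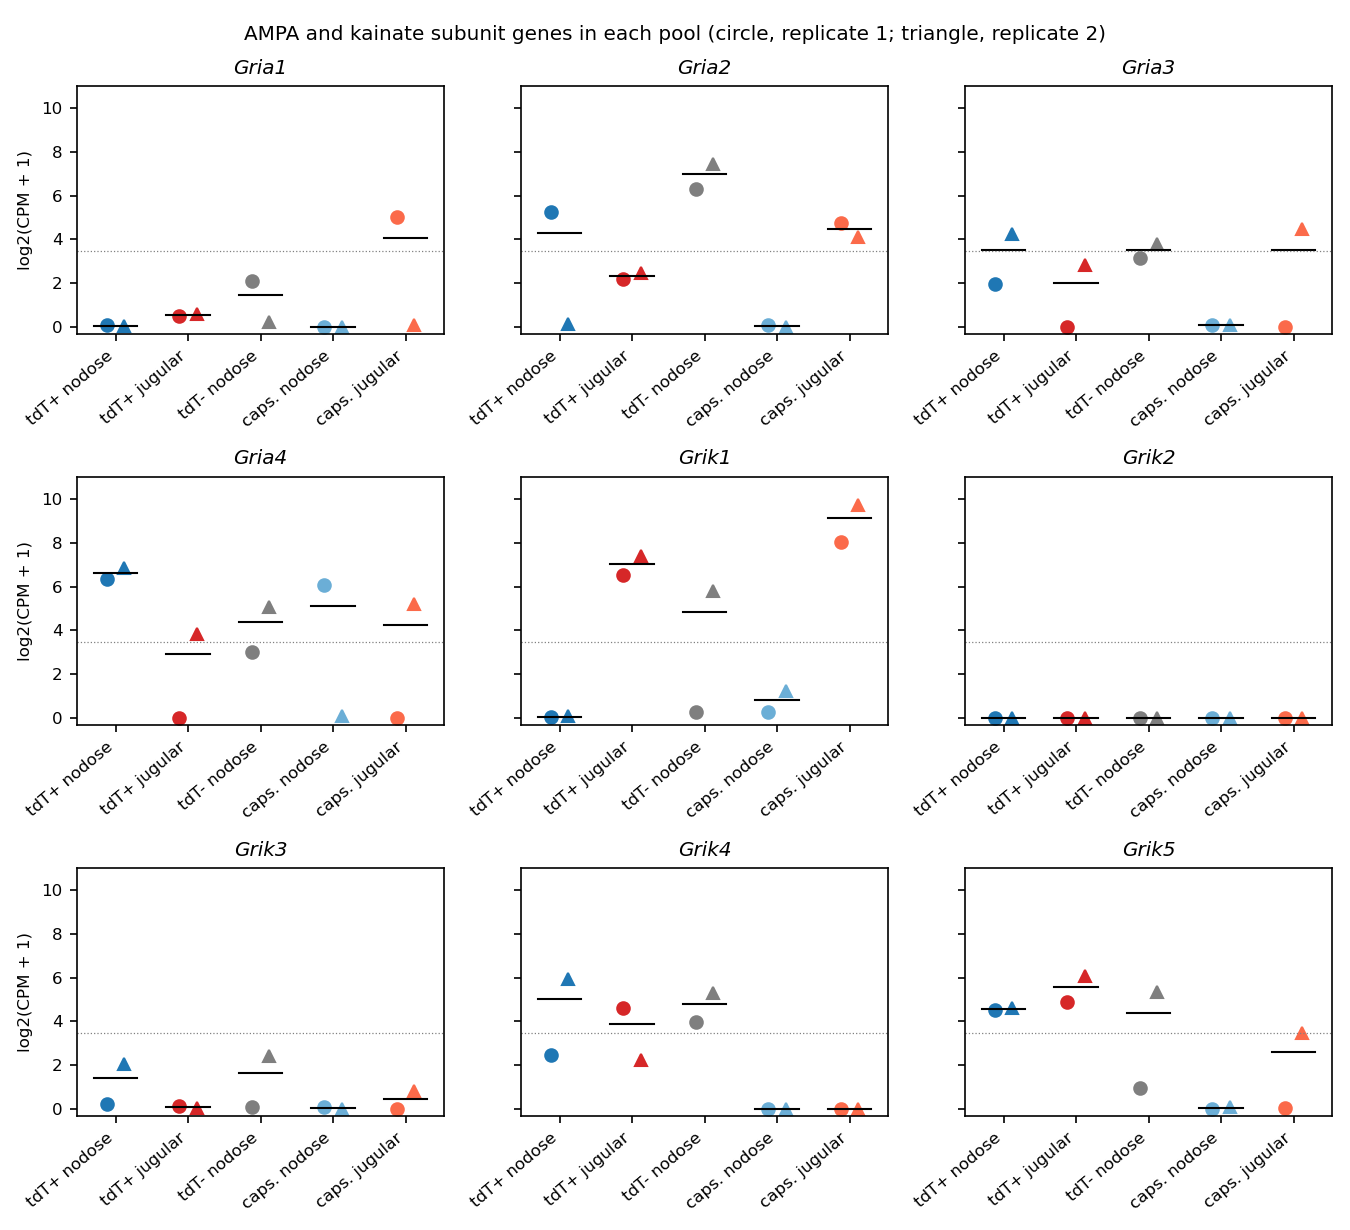
Level of each AMPA and kainate subunit gene in the 10 pools, as log2(CPM + 1), with circles for replicate 1, triangles for replicate 2, black bars at the mean CPM of the 2 replicates and a dotted line at 10 CPM (tdT, Trpv1-tdTomato; caps., capsaicin-selected). Grik1 is high in the 4 jugular pools (91.4 to 843 CPM) and at most 1.38 CPM in the 4 positive or capsaicin-selected nodose pools, Grik2 is at 0 throughout, and Grik4 is at 0 in the 4 capsaicin-selected pools.

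The first comparison asked which of these genes set Trpv1-tdTomato-positive nodose neurons apart from jugular ones. A gene was called when its adjusted p was at most 0.1, its fold change at least 2 and its level at least 10 CPM in both replicates of a group. Of the 8 members with enough counts for the test (all but Grik2), only Grik1 was called, beside 0.318% of the 10990 genes tested in either direction and 0.136% in the jugular direction. Its log2 fold change of nodose over jugular was -11.34 ± 1.32 (SE, n = 2 pools per group, adjusted p = 0.09455, edgeR's quasi-likelihood test with Benjamini-Hochberg adjustment). That call stood close to the threshold. It was lost with DESeq2's size factors in edgeR (adjusted p = 0.1003), with 1 fit to all 10 pools (adjusted p = 0.2308), with the replicate number as a block (adjusted p = 0.321), and whenever any of the 4 pools was left out (adjusted p from 0.4999 to 0.7041), although the log2 fold change then stayed between -11.73 and -10.84. In DESeq2 the adjusted p was 9.276e-11.

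In the capsaicin selection 3 members had enough counts for the test, and edgeR called none of them, nor any of the 8181 genes tested (0%). At an unadjusted p under 0.05 it found 2 members, beside 14.1% of genes, and DESeq2 called 2 members, beside 7.44% of the genes to which it gave an adjusted p. Grik1 again lay apart, with a log2 fold change of nodose over jugular of -9.94 ± 1.55 (SE, n = 2, adjusted p = 0.3521, edgeR) and an adjusted p of 0.0008143 in DESeq2. Leaving out 1 pool in turn gave log2 fold changes between -11.54 and -8.77 and adjusted p-values up to 0.9246 in edgeR, and Grik1 was called without the first jugular pool (adjusted p = 0.003217). With no filter on low counts Grik1 was also called here (adjusted p = 2.764e-07, edgeR).

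With the selection as a covariate over the 8 positive or capsaicin-selected pools, Grik1 had a log2 fold change of nodose over jugular of -10.57 ± 1.07 (SE, adjusted p = 0.001199, edgeR). It was the only member called among 8 tested, beside 0.577% of the 11959 genes tested (0.309% in the jugular direction), and the only member whose 8 pools did not overlap between the ganglia, beside 3.24% of those genes in the jugular direction. The median log2 fold change was -0.18 over all genes and -3.13 over the 8 members, several of which had empty pools. The call held in every alternative run, with adjusted p-values of at most 0.02601 when 1 pool was left out. An exact two-sided permutation test of Grik1 within the selections gave p = 0.05556 over 36 arrangements, the smallest it can give. Of the 9 members tested in this way, Gria1, which stayed near 0 in most pools, gave the same p, and the others gave p from 0.1111 to 1. The difference between the selections in the size of the nodose over jugular change was 1.32 ± 1.43 on the log2 scale (capsaicin minus Trpv1 selection, 95% interval -1.90 to 4.53, adjusted p = 0.8913, edgeR). That interval spans several-fold differences either way.

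**Figure D2:**
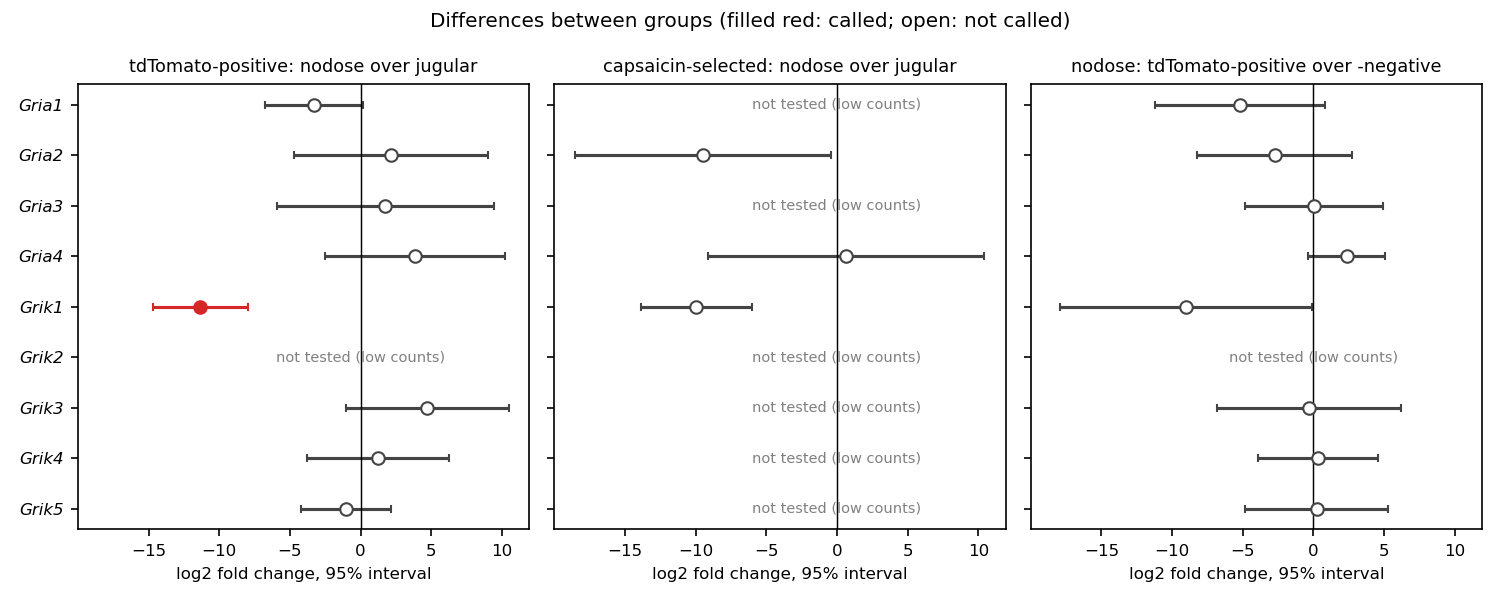
Log2 fold changes of the members in 3 comparisons, with bars for the 95% intervals from edgeR; filled red points were called and open points were not. Grik1 is the only filled point (-11.34, first panel), and its interval in the capsaicin selection runs from -13.87 to -6.01. The intervals of Gria2 in the capsaicin selection (-18.54 to -0.44) and of Grik1 in the third panel (-17.93 to -0.12) also leave out 0. The other intervals are mostly wide, and all of them include 0.

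The kainate partners of Grik1 followed other patterns. Grik5, which encodes the high-affinity partner GluK5, had 22.2 and 23.4 CPM in the Trpv1-tdTomato-positive nodose pools. In the positive jugular pools it had 28.3 and 66.1 CPM. The jugular pools were the higher ones and did not overlap the nodose pools, as was the case for 21.6% of the genes tested, and the log2 fold change of nodose over jugular was -1.06 ± 1.25 (SE, adjusted p = 0.9011, edgeR). In the Trpv1-tdTomato-negative nodose pools Grik5 had 0.933 and 39.3 CPM, the first pool being as low as the second was high. Among the capsaicin-selected pools Grik5 reached 10.2 CPM in the second jugular pool (198 counts) and had at most 1 count in each of the other 3 pools. Summed over pools that is 199 counts in the jugular against 1 in the nodose neurons, a ratio of 165 with an exact 95% counting interval of 29.3 to 6559, which rests on 1 pool and does not cover the spread between pools.

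Grik4, which encodes the other high-affinity partner GluK4, was present in all 6 pools of the Trpv1 selection and in none of the capsaicin selection. It had 4.58 and 59.4 CPM in the Trpv1-tdTomato-positive nodose pools, 23.7 and 3.72 CPM in the positive jugular pools and 14.6 and 38.6 CPM in the negative nodose pools. The 3 groups overlapped, and the log2 fold change of positive nodose over positive jugular was 1.23 ± 1.99 (SE, adjusted p = 0.9376, edgeR). All 4 capsaicin-selected pools had 0 counts. The highest floor there was 0.217 CPM for counting error, but 28.1% of genes at 10 CPM in one capsaicin-selected jugular pool, and 44.4% in a nodose pool, were under 1 CPM in the replicate. Of 4292 genes that were at or above 3.72 CPM in all 6 pools of the Trpv1 selection, 34 (0.792%) were at 0 in all 4 capsaicin-selected pools. That comparison was chosen after the values of Grik4 were seen, and no test between the selections was made. Its limit was the lowest level of Grik4 in those 6 pools. Genes at far higher levels, such as Tubb3 (at least 2683 CPM there), also passed it, so the share is not that of genes at a like level. The glial sums were also lower in the capsaicin selection (1992 to 2971 against 3738 to 5065 CPM), and their part in the result was not tested.

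Grik2 and Grik3 encode the remaining subunits that can form channels alone. Grik2 had 0 counts in all 10 pools, in common with 8173 of the 24421 gene rows, so its level was below the floors given above and no fold is given. Grik3 stayed under 5 CPM in each pool. Its highest levels were 3.13 CPM in the second Trpv1-tdTomato-positive nodose pool (515 counts) and 4.29 CPM in the second negative nodose pool (830 counts). The other positive nodose pool had 0.191 CPM (30 counts), the positive jugular pools had 0.0907 and 0.035 CPM (17 and 7 counts), and the log2 fold change of nodose over jugular in these groups was 4.71 ± 2.27 (SE, adjusted p = 0.5495, edgeR), or 1.57 without the second nodose pool. Capsaicin-selected pools held little Grik3, with 15 counts in the second jugular pool and 0 or 1 in the others.

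Among the AMPA receptor genes, Gria4, which encodes GluA4, had the highest levels in the Trpv1-tdTomato-positive nodose neurons, with 81.2 and 114 CPM. The positive jugular pools had 0.016 and 13.2 CPM (3 and 2641 counts), and the negative nodose pools had 7.09 and 32.9 CPM. Both positive nodose pools lay above all 4 of these. The log2 fold changes of the positive nodose neurons were 3.87 ± 2.51 over jugular (SE, adjusted p = 0.7248, edgeR) and 2.34 ± 1.07 over the negative nodose neurons (SE, adjusted p = 0.5434, edgeR), and neither passed the threshold. Leaving out 1 pool in turn gave 2.86 to 12.49 for the former, the highest without the second jugular pool, and 1.63 to 3.77 for the latter. The capsaicin-selected pools did not keep that order. Gria4 had 66.2 and 0.0725 CPM in the nodose pools (1282 counts and 1 count) and 0 and 36.1 CPM in the jugular pools (0 and 698 counts), with 1 high and 1 empty pool in each ganglion, and the log2 fold change was 0.64 ± 3.87 (SE, adjusted p = 0.9999, edgeR).

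Gria2 was highest in the Trpv1-tdTomato-negative nodose neurons, at 78.1 and 172 CPM (16325 and 33365 counts). The positive jugular pools had 3.57 and 4.51 CPM, and the positive nodose pools had 36.9 and 0.115 CPM (5794 and 19 counts). Both negative pools exceeded all 8 others in the series. They were also the pools with the most Sox10 (12.6 and 2.78 CPM, at most 0.219 elsewhere), and they exceeded the other 4 pools of the Trpv1 selection in Ednrb (45.1 and 55.6 CPM, at most 31.6 there) and the positive nodose pools in Mbp (18.7 and 33.8 against 0.459 and 7.34 CPM) and S100b (449 and 418 CPM). Their summed glial markers, most of which was Apoe, lay within the range of the other Trpv1 selection pools, and the part of glial RNA in the level of Gria2 was not tested. Against the positive jugular neurons, Gria2 had a log2 fold change of -4.92 ± 0.84 (positive jugular over negative nodose, SE, adjusted p = 0.2545, edgeR), and against the positive nodose neurons, whose replicates parted, -2.73 ± 2.15 (positive over negative, SE, adjusted p = 0.8084, edgeR). The latter ran from -10.01 without the first positive pool to -1.71 without the second. DESeq2 called the difference from the jugular neurons (adjusted p = 3.79e-05) and not that from the positive nodose neurons. Gria2 had 25.8 and 16.5 CPM in the capsaicin-selected jugular pools (531 and 319 counts) and 1 and 0 counts in the nodose pools. The summed counts gave a jugular over nodose ratio of 706 with an exact 95% counting interval of 126 to 27910, and edgeR's log2 fold change of nodose over jugular was -9.49 ± 3.57 (SE, adjusted p = 0.3521).

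For Gria2 the ganglia thus lay in opposite orders in the means of the 2 selections, since the mean over the Trpv1-tdTomato-positive nodose pools (18.5 ± 26 CPM, SD, n = 2) rested on the first pool. The log2 fold change of nodose over jugular was 2.18 ± 2.70 in the Trpv1 selection (SE, adjusted p = 0.9069, edgeR), and without that first nodose pool it was -5.12. The difference between the selections was -12.01 ± 5.12 on the log2 scale (SE, capsaicin minus Trpv1 selection, adjusted p = 0.4778, edgeR), and it ran from -16.20 without the first capsaicin-selected nodose pool to -4.63 without the first positive nodose pool. By edgeR 0 of 8 members and 0% of 11959 genes passed the test of this interaction, whose median over all genes was -0.44, while 1 member (Gria2), beside 10.3% of genes, had an unadjusted p under 0.05, and DESeq2 called 1 member (Gria2, adjusted p = 0.004624), beside 8.87% of genes.

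Gria3 and Gria1 encode the remaining AMPA subunits, GluA3 and GluA1. Gria3 had 2.88 and 17.8 CPM in the Trpv1-tdTomato-positive nodose pools, 0.00533 and 6.1 CPM in the positive jugular pools (1 and 1219 counts) and 7.97 and 12.8 CPM in the negative nodose pools. The positive nodose pools overlapped both other groups, with log2 fold changes of 1.75 ± 3.03 over jugular (SE, adjusted p = 0.9397, edgeR) and 0.04 ± 1.93 over negative nodose (SE, adjusted p = 0.9985, edgeR). Gria3 had 21.2 CPM in the second capsaicin-selected jugular pool (410 counts) and at most 1 count in each other pool of that selection. Gria1 passed 10 CPM in a single pool, the first capsaicin-selected jugular one, with 31.5 CPM (649 counts), and its replicate held 1 count. In the positive nodose neurons Gria1 had 0.0701 and 0.0243 CPM (11 and 4 counts) and in the positive jugular neurons 0.421 and 0.495 CPM (79 and 99 counts), levels that did not overlap but lay far below 10 CPM, with a log2 fold change of nodose over jugular of -3.27 ± 1.36 (SE, adjusted p = 0.452, edgeR). The negative nodose pools had 3.28 and 0.186 CPM of Gria1 (685 and 36 counts).

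The comparison within the nodose ganglion, of Trpv1-tdTomato-positive with -negative neurons, called none of the 8 members tested in edgeR, beside 0.0527% of 11386 genes. One member, Grik1, had an unadjusted p under 0.05, beside 11.1% of genes, and DESeq2 called 0 members, beside 2.63% of genes. The negative pools were higher without overlap for Gria1, Gria2 and Grik1 and the positive pools for Gria4, whereas Gria3, Grik3, Grik4 and Grik5 overlapped. Of all genes tested here, 22.4% were higher in the negative and 18.4% in the positive pools without overlap. The log2 fold change of Grik1, positive over negative, was -9.02 ± 3.50 (SE, adjusted p = 0.445, edgeR), and it was -2.21 without the second negative pool. The median log2 fold change was -0.14 over the 8 members and 0.01 over all genes. In the comparison of positive jugular with negative nodose neurons edgeR called none of 8 members, beside 0.226% of 11506 genes, with 1 member (Gria2) at an unadjusted p under 0.05, beside 12.9% of genes, and 1 (Gria2) called in DESeq2, beside 4.19%. The negative nodose pools were higher without overlap for Gria2 and Gria3 (23.4% of all genes). Both positive jugular pools were above the negative nodose pools for Grik1 (20.7% of all genes; log2 fold change 2.29 ± 1.94, SE, adjusted p = 0.7879, edgeR, and 9.11 without the second negative pool).

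Over the 8 members tested in Trpv1-tdTomato-positive nodose against jugular neurons, 2 were higher in nodose without overlap (Gria4 and Grik3, beside 20.5% of all genes), 3 were higher in jugular (Gria1, Grik1 and Grik5, beside 21.6%) and 3 overlapped, with a median log2 fold change of 1.49 beside 0.03 over all genes. Of the 3 tested after capsaicin selection, Gria2 and Grik1 were higher in jugular without overlap, beside 23.4% of all genes, and Gria4 overlapped.

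Levels of different genes were set side by side only as CPM per kilobase of annotated exons, and shares were taken within each receptor family. The cDNA was primed at the poly(A) tail, so such shares depend on how far along a transcript the reads reach. Gria4 made up 82.8% and 90.8% of the summed AMPA level in the Trpv1-tdTomato-positive nodose pools and 99.9% in the first capsaicin-selected nodose pool. The second had only 2 counts on the family, too few for a share. In the negative nodose pools Gria2 led instead, with 67% and 62.9%, and Gria4 followed with 15% and 29.6%. Per kilobase of coding sequence Gria4 held 7.22% and 14.8% there, under Gria3 (8.24%) in the first pool. No single gene led in jugular neurons. Gria2 was the largest in the first Trpv1-tdTomato-positive jugular pool (75.9%, 753 counts on the family) and Gria4 in the second (67.9%, 4861 counts), while Gria1 led in the first capsaicin-selected jugular pool (75.9%, 1180 counts) and Gria4 in the second (64%, 1428 counts).

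Kainate shares differed by ganglion in the Trpv1-tdTomato-positive pools, but not in every group. Grik1 made up 58.9% and 65.1% of the summed kainate level in the Trpv1-tdTomato-positive jugular pools, where Grik5 followed with 23.8% and 33.3%. In the capsaicin-selected jugular pools it made up 99.98% in the first (5391 counts on the family) and 98.4% in the second (16540 counts). For the positive nodose pools the share of Grik1 was 0.112% and 0.0609%, and the signal was on Grik5 and Grik4, which held 84.3% and 15.1% in the first pool and 30.4% and 67.2% in the second. The negative nodose pools differed from each other, with Grik4 at 91.7% in the first and Grik1, Grik5 and Grik4 at 35.8%, 33.5% and 28.6% in the second. The capsaicin-selected nodose pools had 5 and 20 counts on the whole kainate family, and Grik1 held 84.2% and 93.6% of the summed level there. These shares rest on very few counts, and Grik1 thus led in the capsaicin-selected pools of both ganglia.

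**Figure D3:**
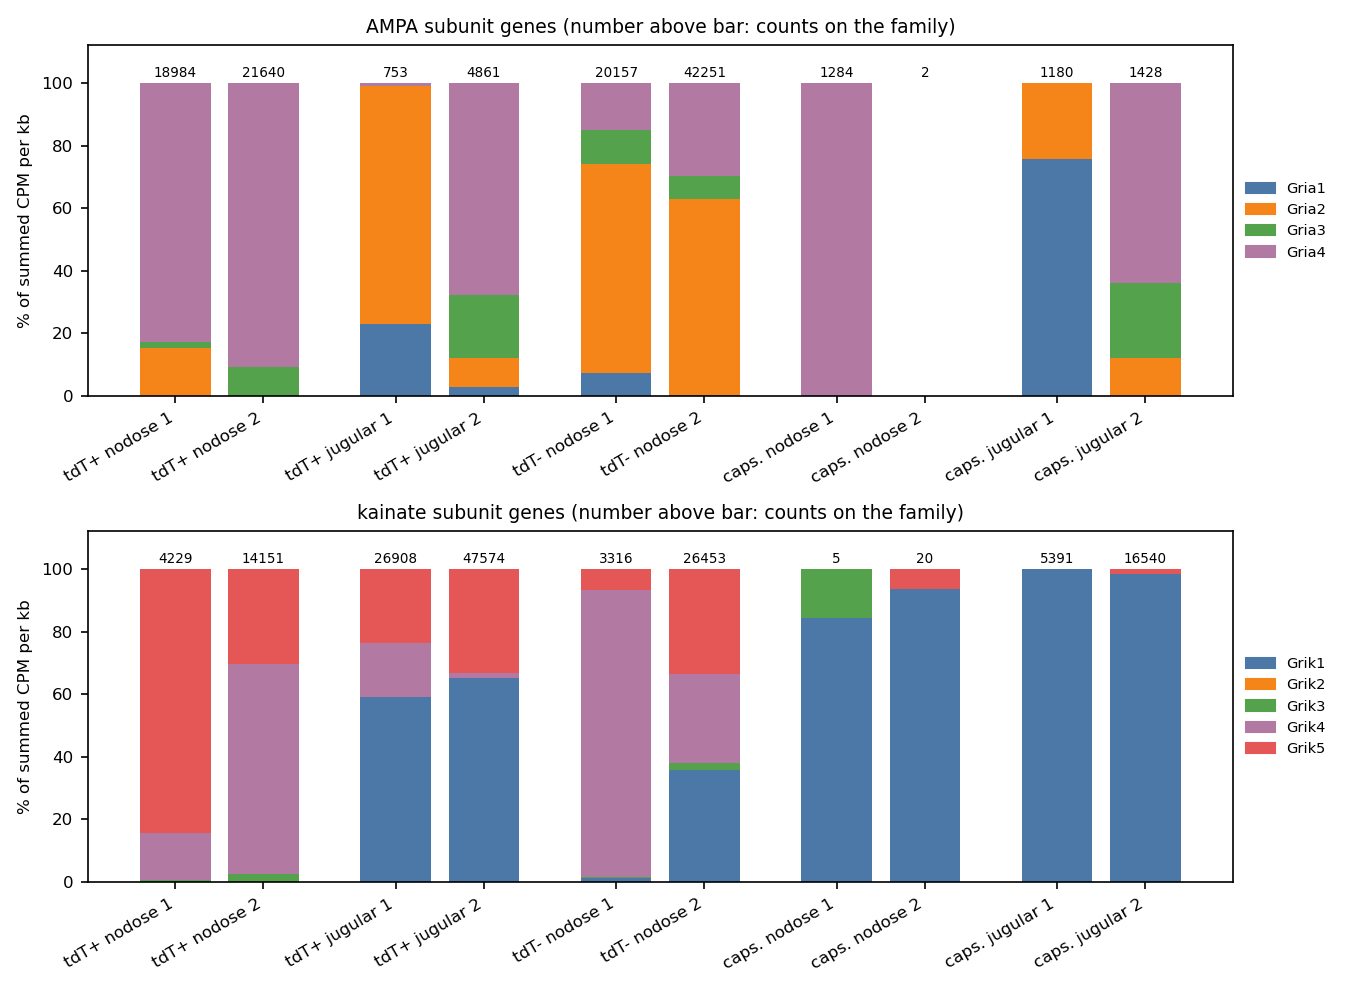
Share of each subunit gene in the summed CPM per kilobase of exons of its family, in percent, for each of the 10 pools, with the number of counts on the family above each bar (no bar where the family had 3 counts or fewer). Gria4 fills most of the AMPA bar of the Trpv1-tdTomato-positive nodose pools (82.8% and 90.8%) and Grik1 most of the kainate bar of the 4 jugular pools. Grik1 also fills most of the kainate bar of both capsaicin-selected nodose pools (84.2% and 93.6%), which had only 5 and 20 counts on the family.

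The replicates themselves parted for many genes, members included. Where a gene reached 10 CPM in a pool, its replicate pool was under 1 CPM in 15.5% of cases in the Trpv1-tdTomato-negative nodose neurons, 18.3% in the positive jugular, 23% in the positive nodose, 28.1% in the capsaicin-selected jugular and 44.4% in the capsaicin-selected nodose neurons. The members did so for Gria2 in the positive nodose pools, Gria4 in the positive jugular and the capsaicin-selected nodose pools, Grik1 and Grik5 in the negative nodose pools, and Gria1, Gria3, Gria4 and Grik5 in the capsaicin-selected jugular pools. In the last group that was 4 of the 6 members that reached 10 CPM in a pool, and Grik1 and Gria2 were the other two.

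**Figure D4:**
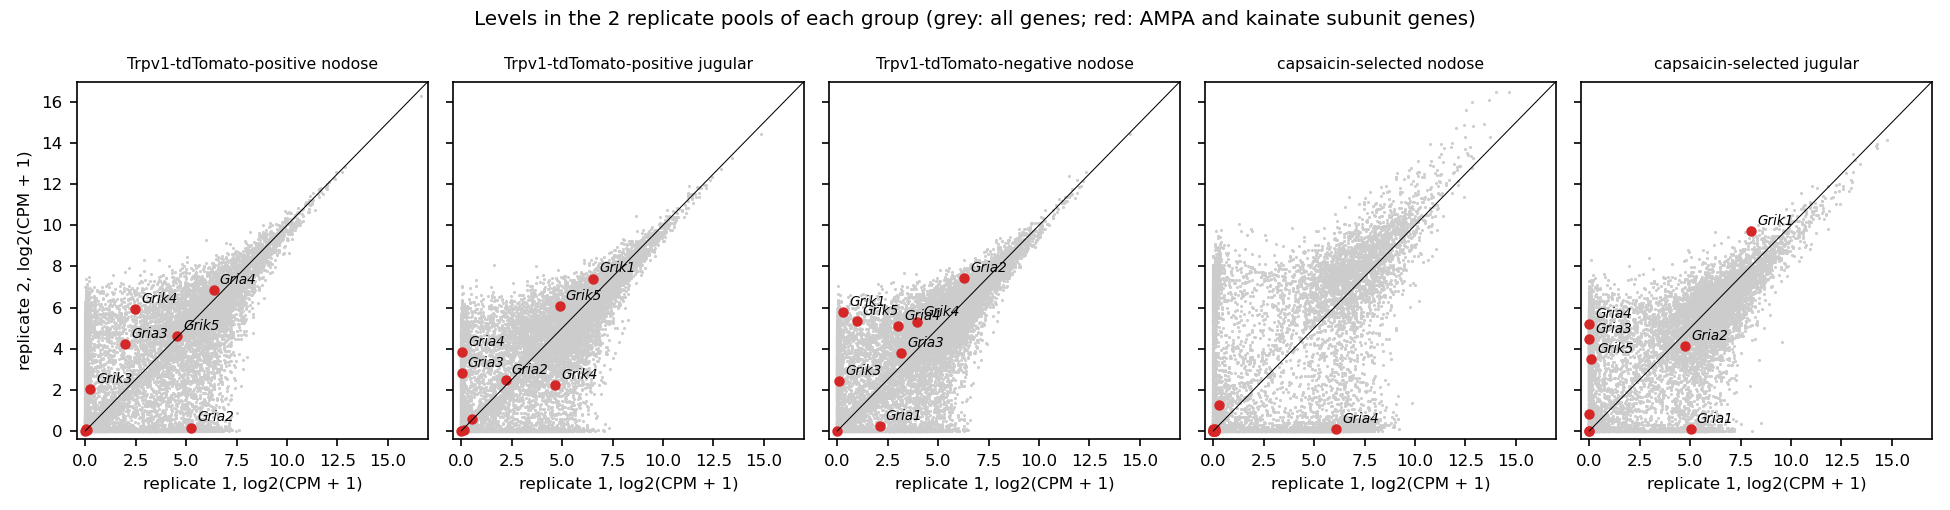
Level of each gene in replicate 1 against replicate 2 of each group, as log2(CPM + 1), with all genes in grey, the 9 members in red (named above 2 on either axis) and the line of equal levels. Some members lie along an axis, high in 1 pool and near 0 in the other, for example Gria2 in the Trpv1-tdTomato-positive nodose pools (36.9 and 0.115 CPM). Grik1 is high in both pools of the Trpv1-tdTomato-positive jugular (91.4 and 168 CPM) and capsaicin-selected jugular groups (262 and 843 CPM).

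By group means, Grik1 ran from capsaicin-selected jugular (552 ± 411 CPM, SD, n = 2) through Trpv1-tdTomato-positive jugular (130 ± 54.3), negative nodose (27.4 ± 38.4) and capsaicin-selected nodose (0.792 ± 0.828) to positive nodose (0.0495 ± 0.0159), and the neighbours overlapped only between negative nodose and capsaicin-selected nodose. Gria2 ran from negative nodose (125 ± 66.7 CPM) through capsaicin-selected jugular (21.1 ± 6.6), positive nodose (18.5 ± 26) and positive jugular (4.04 ± 0.664) to capsaicin-selected nodose (0.0258 ± 0.0365), with overlap on both sides of positive nodose. Gria4 ran from positive nodose (97.3 ± 22.9 CPM), which stood apart, to capsaicin-selected nodose (33.1 ± 46.7), negative nodose (20 ± 18.3), capsaicin-selected jugular (18 ± 25.5) and positive jugular (6.62 ± 9.33), which overlapped one another in turn. Grik5 ran from positive jugular (47.2 ± 26.7 CPM), apart from positive nodose (22.8 ± 0.849), to negative nodose (20.1 ± 27.1), capsaicin-selected jugular (5.14 ± 7.2) and capsaicin-selected nodose (0.0362 ± 0.0512), each overlapping the next. Grik4 ran from positive nodose (32 ± 38.8 CPM) to negative nodose (26.6 ± 16.9) and positive jugular (13.7 ± 14.2), which overlapped, and then to both capsaicin-selected groups at 0.

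The genes most like a member were sought among 7837 genes at 10 CPM or more in both replicates of a group, by Pearson's r of log2(CPM + 1) over the 10 pools, for the 5 members that met the same limit. The r values are a description, and the pools share selection and depth. Grik1 was most like Ccdc68 (r = 0.988), Tspan2 (r = 0.974), a tetraspanin, and Dpp10 (r = 0.97), an auxiliary protein of Kv4 potassium channels, and none of these r values fell below 0.9595 when 1 pool was left out. Ccdc68 averaged 48.1 CPM in positive jugular, 78 in capsaicin-selected jugular and 12 in negative nodose neurons, but 0.00623 and 0.0879 CPM in the positive and capsaicin-selected nodose neurons. Gria2 was most like Nebl (r = 0.951) and Mlst8 (r = 0.9), a subunit of the TOR complexes. Among the genes most like Gria4 were Sirt5 (r = 0.932), a mitochondrial sirtuin, and Garnl3 (r = 0.932). Grik4 was most like Rps6kl1 (r = 0.98), Tmem41a (r = 0.954) and Atxn7l3 (r = 0.953), the first 2 of which were also at 0 in the capsaicin selection. Grik5 was most like Mta1 (r = 0.972), Ncln (r = 0.948) and Slc9a3r1 (r = 0.943).

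Of the 52 genes in 6 lists of other glutamate receptors and of proteins that work with AMPA and kainate receptors, 15 reached 10 CPM in both replicates of a group, and edgeR called none in any comparison. At an unadjusted p under 0.05 edgeR found 3 of 25 tested for Trpv1-tdTomato-positive nodose against jugular (Dlg2, Nptx1 and Porcn), 3 of 13 in the capsaicin selection, 3 of 30 for positive against negative nodose, 5 of 30 for positive jugular against negative nodose, 4 of 22 over both selections and 2 of 22 for the interaction. Over all genes tested the shares at that p were 11.9%, 14.1%, 11.1%, 12.9%, 11.1% and 10.3%. DESeq2 called 2, 2, 1, 3, 3 and 2 of them, beside 3.81%, 7.44%, 2.63%, 4.19%, 8.82% and 8.87% of genes. Of the 9 NMDA and delta receptor subunits only Grin1, the obligate NMDA subunit, and Grin3a passed 10 CPM, and Grin2a and Grin2c were at 0 in every pool. The highest level of Grin2b was 0.188 CPM. Of 8 metabotropic receptors only Grm7 passed, with 99.6 and 94.1 CPM in the capsaicin-selected jugular and 0 and 0 in the capsaicin-selected nodose pools, while the Trpv1-tdTomato-positive jugular (37 and 46.7 CPM) and nodose (38.2 and 5.44 CPM) pools were nearer to each other.

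Auxiliary subunits of AMPA receptors, which steer their trafficking and gating, passed 10 CPM in 3 of 17 cases (Cacng5, Cnih2 and Cpt1c). Cacng5, a TARP, had 16.1 and 37.7 CPM in the Trpv1-tdTomato-negative nodose pools and at most 0.0901 CPM in each of the other 8 pools. In those negative pools Gria2 and the glial gene Sox10 were also highest, and the part of glial RNA in the level of Cacng5 was not tested. The log2 fold change of Cacng5, positive over negative nodose, was -9.84 ± 2.60 (SE, adjusted p = 0.3657, edgeR), and DESeq2 called it. Of all genes tested there, 22.4% were higher in the negative pools without overlap. Neto2, one of the 2 kainate auxiliary subunits, had 54.5 and 29.9 CPM in the positive nodose, 1.42 and 26.5 in the positive jugular, 76.5 and 163 in the capsaicin-selected nodose and 79.1 and 0 in the capsaicin-selected jugular pools, so that it was present in all 4 nodose and 3 of 4 jugular pools of these groups.

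Of 13 scaffold and trafficking partners, 7 passed. Grip1, which binds the tails of AMPA receptor subunits, had 16.7 and 11.3 CPM in the Trpv1-tdTomato-positive jugular and 19.3 and 28.1 CPM in the capsaicin-selected jugular pools, against at most 0.31 CPM in the 4 nodose pools of these selections. Nptx1, a neuronal pentraxin that clusters AMPA receptors, had 21.9 and 14.2 CPM and 9.38 and 10.6 CPM in those jugular pools and 0 in all 4 nodose pools. For Grip1 the log2 fold change of nodose over jugular over both selections was -8.04 ± 2.85 (SE, adjusted p = 0.3512, edgeR), and DESeq2 called both genes. Nsf, a general trafficking ATPase, was at 128 to 293 CPM in all 10 pools. Of the 3 RNA editing enzymes, Adar passed, with 1.08 to 48.7 CPM. Adarb1, the enzyme that edits the Gria2 codon printed above, had 14.3 and 0.705 CPM in the positive nodose, 16.9 and 8.32 in the positive jugular and 13.2 and 0.997 in the negative nodose pools, and did not pass. Adarb1 had 52.9 CPM in the second capsaicin-selected jugular pool and at most 0.507 CPM in the other 3 of that selection.

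**Figure D5:**
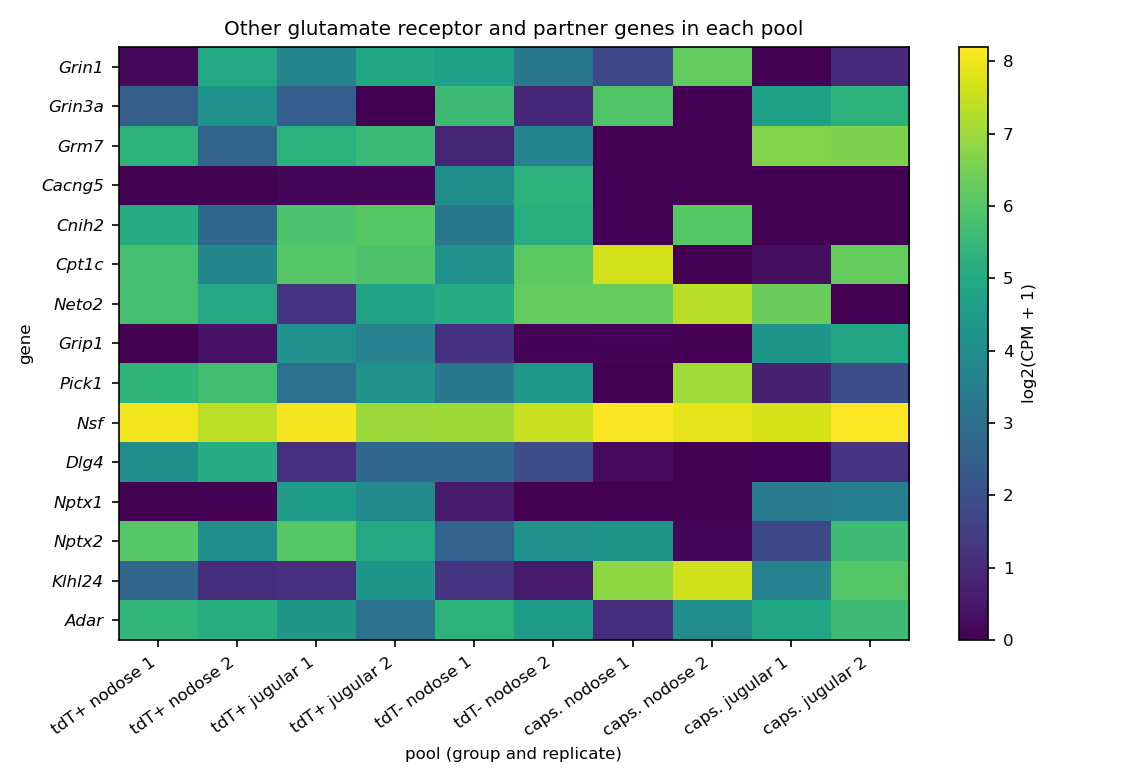
Level, as log2(CPM + 1), of the 15 other glutamate receptor and partner genes that reached 10 CPM in both replicates of a group, by pool. Grip1 and Nptx1 are high in the 4 jugular columns, Cacng5 in the 2 Trpv1-tdTomato-negative nodose columns (16.1 and 37.7 CPM), and Nsf in all 10 columns (128 to 293 CPM).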

How the data were processed

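Pools of 14 to 30 neurons were lysed without RNA extraction. cDNA was made with the SMARTer Ultra Low Input kit (dT priming, 15 PCR cycles) and sequenced as 50-base pairs. The deposited values are raw counts by gene symbol, which the authors left unnormalized. The submitters' processing notes name CASAVA 1.8.2, TopHat2 2.0.9, Bowtie2 2.1.0.0, HTSeq and mm10. The annotation counted on and the strand setting are not given in the sources used here. PCR copies were not marked by molecular identifiers, so counting intervals and floors cover counting error only.

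Groups came from the sample labels, and cell numbers and agonist doses from the study's methods. CPM came from DESeq2 size factors, set so that their geometric mean matched that of the totals. Group differences were tested on all genes with edgeR 4.0.16 (R 4.3.3): TMM, filterByExpr and the quasi-likelihood test with Benjamini-Hochberg adjustment, on the pools compared. The scripts were tested on simulated data, where recovery was required only at the lower of the simulated spreads, which need not match the spread of these pools. DESeq2 1.42.0, run on all genes with a count, was an alternative, beside other scalings, filters, fits and leaving out each pool. Positions and transcripts were from GENCODE vM21 (GRCm38, the assembly of mm10). Python 3.11.15 drew the figures.

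The 9 members and the lists were chosen with earlier results of these data known. Named beside the members were list genes at 10 CPM in both replicates of a group, and the 3 genes most like each such member. Other list genes named (Grin2a, Grin2b, Grin2c, Dlg2, Porcn and Adarb1) were chosen after their values were seen. Cell type markers were named to check the labels. Some genes of these lists and rules are not reported here.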

Additional observations from a re-analysis of the deposited data

How the results depend on the processing

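Each group had 2 pools of 14 to 30 cells, so calls rested on little replication, and depth was lower in the capsaicin selection. In the order positive nodose against jugular, capsaicin-selected nodose against jugular, positive against negative nodose, positive jugular against negative nodose, nodose against jugular over both selections, and interaction, edgeR called 1, 0, 0, 0, 1 and 0 members and 35, 0, 6, 26, 69 and 0 genes. DESeq2 called 1, 2, 0, 1, 1 and 1 members and 506, 800, 372, 594, 1215 and 1168 genes. With no filter on low counts edgeR called 1 member in the capsaicin selection and 59, 122, 10, 47, 222 and 95 genes. One fit to all 10 pools called 0 members for positive nodose against jugular, 111 genes in the capsaicin selection, 14 for positive jugular against negative nodose, 213 over both selections and 7 for the interaction. With DESeq2's size factors in edgeR 0 members were called for positive nodose against jugular. Leaving out Rn45s or the CPM minimum changed no call of a member. The causes of these changes were not tested.

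Leaving out each pool in turn, where the lone pool of an arm is assumed to vary like the others, gave 0 members and 0 genes for positive nodose against jugular, 0 to 1 members and 0 to 29 genes in the capsaicin selection (Grik1 was called without the first jugular pool), and 0 genes for positive against negative nodose. It gave 1 to 2 genes for positive jugular against negative nodose, 38 to 89 over both selections, and 0 to 195 for the interaction, the last without the first capsaicin-selected nodose pool. Log2 fold changes that changed sign, none of them called, ranged for positive nodose against jugular from -5.12 to 3.17 (Gria2), -0.11 to 10.72 (Gria3) and -1.60 to 3.10 (Grik4), and for capsaicin-selected nodose against jugular from -8.35 to 12.27 (Gria4). For positive against negative nodose they ranged from -1.81 to 0.84 (Gria3), -3.43 to 4.63 (Grik3), -2.48 to 1.23 (Grik4) and -0.72 to 4.59 (Grik5), and for the interaction from -0.33 to 2.48 (Grik1).

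Same-numbered pools did not deviate together (r from -0.0159 to 0.0172 across genes in the comparisons of 2 groups), so the numbers were not taken as a pairing. With the replicate block edgeR called 0 and 1 members in the first 2 comparisons (Grik1, adjusted p = 0.321 and 0.06308) and 13, 20, 1, 2 and 41 genes in the first 5. The block turned the sign for Gria2 in positive nodose against jugular (-0.94), and for Gria3 (-0.47), Grik3 (0.54) and Grik4 (-0.50) in positive against negative nodose.

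Of 120 mean levels under other scalings, 10 moved by more than the SD of the replicates, as did 5 of 41 family shares per coding length, where Gria2 rose to 80.2% of the AMPA level in negative nodose neurons. With a pseudocount of 10 the r values ran from 0.814 to 0.991, and 13 of 15 moved by more than their SD over the sets without 1 pool.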
